A study of Caenorhabditis elegans with 6 samples.

Results

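RNA-Seq counts were examined for 44 genes of the RNA interference (RNAi) and small RNA machinery of *C. elegans*, out of 46739 genes in the count table. The genes were the rows of a fixed list of 45 names that cover double-stranded RNA (dsRNA) uptake, Dicer, Argonaute, RNA-dependent RNA polymerase and mutator proteins. The list was drawn up by function, with earlier results of these data known. The names *rde-3* and *mut-2* on this list belong to a single gene, which is called *mut-2* here. There were 3 libraries labelled Y37A1B.5 RNAi (called the RNAi libraries here), from worms fed *E. coli* HT115 that carried a fragment of *Y37A1B.5* in the L4440 plasmid, and 3 L4440 control libraries, from worms fed HT115 with the empty plasmid. *Y37A1B.5* encodes the worm relative of human selenium-binding protein. In both groups the worms were wild-type Bristol N2, were kept at 20 °C on *E. coli* OP50 until young adulthood, and ate the RNAi bacteria up to day 5, when many whole worms were pooled into each lysate. L4440 bacteria transcribe their plasmid from both sides, so both groups took up RNAi bacteria and no library came from worms without them. The comparison therefore asks whether transcripts of the RNAi machinery differed with the sequence on the plasmid. It does not ask what eating RNAi bacteria does to these genes.

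In *C. elegans*, dsRNA from the gut lumen is taken up by SID-2, passes between cells through the channel SID-1, and is cut by Dicer with its partner RDE-4 into primary short interfering RNAs (siRNAs). The Argonaute RDE-1 carries these to a target transcript, on which RNA-dependent RNA polymerases make many secondary siRNAs in granules built on MUT-16, and further Argonautes then silence the target in the cytoplasm or in the nucleus. Dicer also serves the microRNA branch, in which the Argonautes ALG-1 and ALG-2 and the glycine-tryptophan repeat proteins AIN-1 and AIN-2 repress transcripts. Other Argonautes bind germline piRNAs and endogenous siRNAs made by the RRF-3 polymerase with the ERI proteins. All of these pathways draw on shared parts, for which their members are known to compete.

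The libraries held 34403223 to 46733527 counts, and the 44 genes took 0.563% to 0.660% of them. *Y37A1B.5* itself went against the labels. It had 4833, 3519 and 4189 counts in the libraries labelled Y37A1B.5 RNAi, against 1126, 1295 and 792 counts in the L4440 control libraries, a log2 difference of 1.85 (edgeR adjusted p = 0.000834). Its count can include reads of the fed construct, so it does not check the knockdown, and every direction below is that of the libraries labelled Y37A1B.5 RNAi over the L4440 control. Replicates are separate experiments according to the methods of the study. RNAi replicate 3 stood apart. The median distance between libraries over the 44 genes, as an absolute log2 difference, was 0.234 and 0.208 between RNAi replicate 3 and RNAi replicates 1 and 2, but 0.0358 between RNAi replicates 1 and 2. It was 0.0632 to 0.0807 between the L4440 libraries. Over all genes the same distances were 0.202 and 0.184 to RNAi replicate 3, 0.101 between RNAi replicates 1 and 2, and 0.0997 to 0.140 between the L4440 libraries. RNAi replicate 3 was the lowest of the 6 libraries for 30 of the 44 genes (68.2%), against 28.6% of all genes tested. Long transcripts in general had this library lowest, with 77.5% of all genes in the longest decile by transcript length and 53.6% in the next, and 30 of the 44 genes lie in these deciles. For some of the genes, but not all, the difference is also given without this library.

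Levels are CPM, the counts of a gene scaled to the size of its library, on edgeR's TMM scale, and differences are log2 fold changes of Y37A1B.5 RNAi over L4440 control, tested by the quasi-likelihood F test of edgeR, with p adjusted by Benjamini-Hochberg over all 15003 genes and a threshold of 0.05. Of the 44 genes, 4 were lower in the RNAi libraries (*ain-1*, *alg-1*, *alg-2* and *nrde-3*), which is 9.09%, where 8.85% of all genes tested were lower. None was higher, where 4.81% of all genes tested were. At an unadjusted p under 0.05, 6 were lower and 1 was higher, and DESeq2 called 4 lower and 0 higher. The share of lower genes was thus near that of the whole table. The median log2 difference was −0.086 over the 44 genes and −0.028 over all genes tested, with 29 genes negative and 15 positive. Groups did not overlap for 15 of the 44 genes with all RNAi libraries below (34.1%, against 22.1% of all genes tested) and for 5 with all RNAi libraries above (11.4%, against 18.4%). For 40 of the 44 genes the 95% interval of the difference lay inside a 1.5-fold change either way. The exceptions were *alg-1*, *nrde-3* and the barely detected *alg-3* and *alg-4*. In whole-worm libraries, fewer cells of a type and less RNA per cell cannot be told apart.

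**Figure D1:**
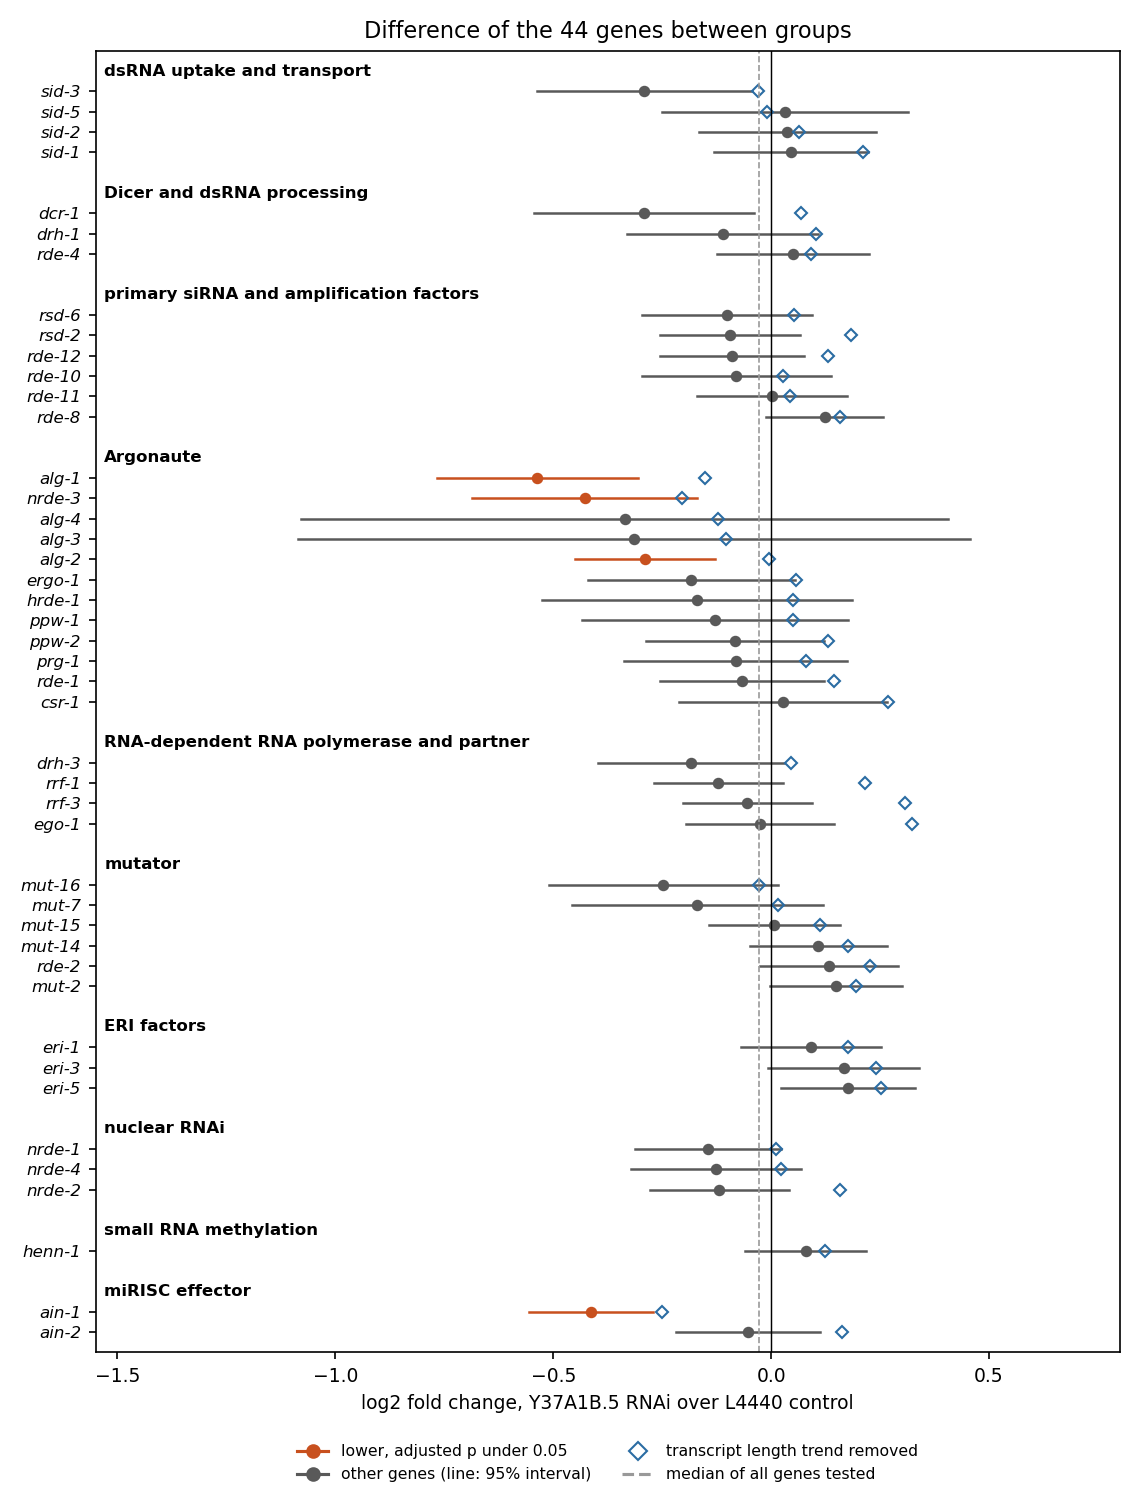
Log2 fold change of each of the 44 genes, Y37A1B.5 RNAi over L4440 control (x axis), grouped by role, with filled points for the edgeR estimate, lines for its 95% interval and open diamonds for the estimate after a trend with transcript length was removed. The 4 genes in orange, *ain-1*, *alg-1*, *alg-2* and *nrde-3*, passed the threshold, and the dashed line is the median of all genes tested (−0.028).

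Among the microRNA effectors, *ain-1* had the most stable of the 4 differences. Its product tethers the microRNA Argonautes to the deadenylase machinery, and the gene (WBGene00015547) lies on chromosome X at 16613451 to 16616871 (WBcel235). *ain-1* had 120.2, 124 and 125 CPM in RNAi replicates 1 to 3, against 164, 165 and 162 CPM in L4440 replicates 1 to 3. The groups were well apart and each was tight, RNAi replicate 3 included. The level fell by 24.9% (log2 −0.41, 95% interval −0.56 to −0.27, edgeR adjusted p = 0.00323). It passed the threshold under 14 of 14 alternative settings, with adjusted p between 4.10e-05 and 0.0263 in edgeR or DESeq2. Its paralog *ain-2*, which acts in the same complexes, had 240.4, 241 and 264 CPM in the RNAi libraries, against 266, 254 and 253 CPM in the L4440 libraries. These groups overlapped (log2 −0.054, 95% interval −0.22 to 0.11, edgeR adjusted p = 0.647). The ratio of *ain-1* to *ain-2* within a library was 0.496 ± 0.0201 in the RNAi libraries and 0.637 ± 0.0179 in the L4440 libraries (SD, n = 3 each). With 3 libraries against 3, the two-sided exact permutation p of this ratio was 0.1, the smallest the design allows, and the ratio was chosen after its values were seen. Its adjusted value over the 2 ratios computed was also 0.1.

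The microRNA Argonaute genes *alg-1* and *alg-2* were lower as well. *alg-5*, kept here in the wider list of other Argonautes, was not, and its groups overlapped (log2 0.032, edgeR adjusted p = 0.841). *alg-1*, which carries most of the microRNAs of the worm's soma together with *alg-2*, lies on chromosome X at 13949110 to 13956261 (WBGene00000105). It had 76.4, 75.6 and 57.9 CPM in the RNAi libraries, against 97.9, 108 and 98.5 CPM in the L4440 libraries. Every RNAi library was below every L4440 library, and RNAi replicate 3 was the lowest. The level fell by 31.03% (log2 −0.54, 95% interval −0.77 to −0.31, edgeR adjusted p = 0.00990), and without RNAi replicate 3 the log2 difference was −0.41 (edgeR adjusted p = 0.00119). Of the 14 alternative settings, the removal of a trend with transcript length, described further on, was the one that took *alg-1* out of the calls (adjusted p = 0.105). *alg-2* (chromosome II, 873212 to 879885, WBGene00000106) had 112, 124 and 114 CPM in the RNAi libraries, against 144, 148 and 137 CPM in the L4440 libraries. The groups did not overlap, and here RNAi replicate 3 lay between the other RNAi libraries. This level fell by 18.2% (log2 −0.29, 95% interval −0.45 to −0.13, edgeR adjusted p = 0.0274). The call of *alg-2* was lost without RNAi replicate 1 (edgeR adjusted p = 0.0834), without L4440 replicate 1 (0.114) without L4440 replicate 2 (0.127) and with the length trend removed (0.973). Of the exon bases of *alg-1*, 1.43% overlap another gene on the same strand in the annotation used here, where reads may not have been counted. The ratio of *alg-1* to *alg-2* was 0.598 ± 0.0871 in the RNAi libraries and 0.709 ± 0.0249 in the L4440 libraries (SD, n = 3 each; exact permutation p = 0.1, two-sided). Its highest RNAi library and lowest L4440 library were equal to 3 digits, at 0.681. Per kilobase of transcript, the level of *alg-1* was 11.1 ± 1.66 CPM in the RNAi libraries and 16.1 ± 0.896 CPM in the L4440 libraries, and that of *alg-2* was 28.2 ± 1.58 and 34.5 ± 1.43 CPM in the same groups.

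**Figure D2:**
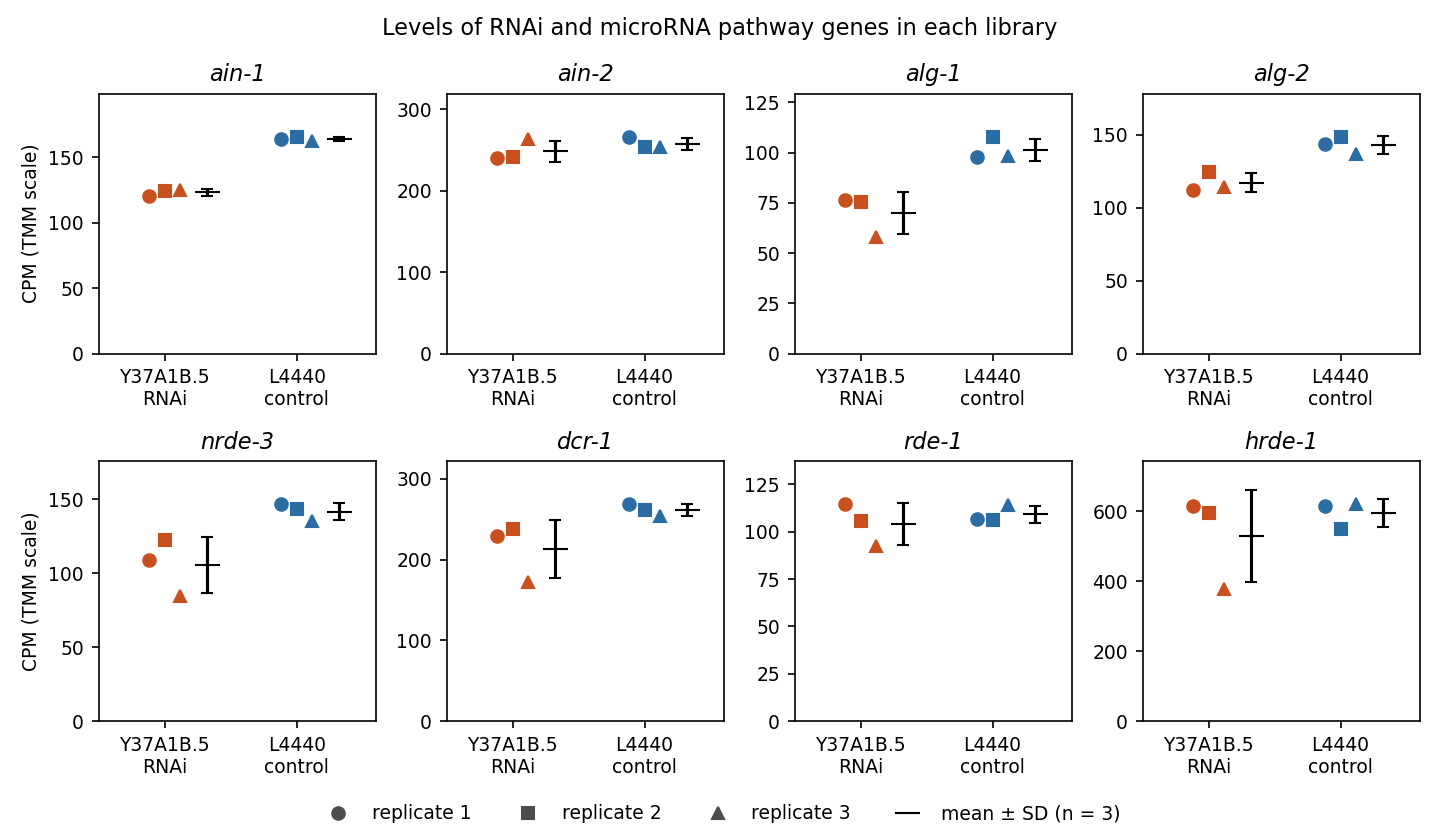
CPM of 8 genes in each library (y axes from 0, TMM scale), with Y37A1B.5 RNAi in orange on the left and L4440 control in blue on the right, a marker shape for each replicate number, and the mean ± SD of 3 libraries as a dash with bars. *ain-1*, *alg-1*, *alg-2* and *nrde-3* did not overlap between groups, and RNAi replicate 3 (triangle) lay lowest for *alg-1*, *nrde-3*, *dcr-1*, *rde-1* and *hrde-1*.

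The remaining gene past the threshold was *nrde-3* (chromosome X, 372235 to 376900, WBGene00019862). It encodes the Argonaute that takes siRNAs from the cytoplasm of somatic cells into the nucleus. *nrde-3* had 109, 122 and 84.8 CPM in the RNAi libraries, against 146, 143 and 135 CPM in the L4440 libraries. No RNAi library reached the lowest L4440 library, and RNAi replicate 3 was farthest below. The level fell by 25.7% (log2 −0.43, 95% interval −0.69 to −0.17, edgeR adjusted p = 0.0374). It passed the threshold under 9 of 14 alternative settings, the fewest of the 4 genes. The call was lost without RNAi replicate 1 (edgeR adjusted p = 0.0638) and without L4440 replicate 1 (0.125), replicate 2 (0.123) or replicate 3 (0.0632), and with the length trend removed (0.0816), while without RNAi replicate 3 it stood at log2 −0.29 (adjusted p = 0.0118). Its partners *nrde-1*, *nrde-2* and *nrde-4*, which act with it at the nascent transcript, had log2 differences of −0.14, −0.12 and −0.13 (edgeR adjusted p 0.207, 0.270 and 0.334). All 3 had every RNAi library below every L4440 library without passing the threshold, as 22.1% of all genes tested had with or without a call. RNAi replicate 3 was the lowest library for all 3. With the length trend removed their log2 differences were 0.012, 0.16 and 0.023 (edgeR adjusted p 0.916, 0.130 and 0.845). Of these, *nrde-2* had 162, 157 and 148 CPM in the RNAi libraries, against 163, 177 and 168 CPM in the L4440 libraries.

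None of the 4 genes for dsRNA uptake passed the threshold, with 1 lower at an unadjusted p under 0.05 and 0 in DESeq2. *sid-1*, the dsRNA channel, had 106, 102 and 88.4 CPM in the RNAi libraries, against 98.9, 92.3 and 95.9 CPM in the L4440 libraries. The groups overlapped, with RNAi replicates 1 and 2 above the L4440 range and RNAi replicate 3 below it (log2 0.046, 95% interval −0.13 to 0.22, edgeR adjusted p = 0.720). *sid-2*, the gut protein that takes dsRNA up from the lumen, had 12.12, 12.97 and 13.06 CPM in the RNAi libraries and 11.43, 12.46 and 13.31 CPM in the L4440 libraries. These 6 values were within a narrow band (log2 0.037, 95% interval −0.17 to 0.24, edgeR adjusted p = 0.811). *sid-3*, a tyrosine kinase needed for efficient import, had 54.8, 54.2 and 39.8 CPM in the RNAi libraries, against 60.5, 58.7 and 62.8 CPM in the L4440 libraries. Its groups did not overlap, but the difference missed the threshold (log2 −0.29, 95% interval −0.54 to −0.044, edgeR adjusted p = 0.101). *sid-5*, an endosomal protein of dsRNA transport, had 8.29 ± 1.27 CPM in the RNAi libraries and 8.12 ± 0.747 CPM in the L4440 libraries (SD, n = 3 each). It was the gene of the 44 for which RNAi replicate 3 lay farthest above the mean of RNAi replicates 1 and 2, by 0.36 on the log2 scale.

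Dicer showed a difference that depended on the libraries used. *dcr-1*, which cuts long dsRNA as well as microRNA precursors, had 229.5, 238 and 172 CPM in the RNAi libraries, against 268, 261 and 254 CPM in the L4440 libraries. The groups did not overlap and RNAi replicate 3 was far below the others. The log2 difference was −0.29, 95% interval −0.54 to −0.04, edgeR adjusted p = 0.106. Without RNAi replicate 3 it was smaller, −0.15, but passed the threshold (edgeR adjusted p = 0.0443). With the trend on transcript length removed, as described further on, it was 0.069 (edgeR adjusted p = 0.465), so its direction depended on that step. *rde-4*, the dsRNA-binding partner of Dicer, had 156, 156 and 135 CPM in the RNAi libraries, against 143, 139 and 149 CPM in the L4440 libraries, and these overlapped (log2 0.051, 95% interval −0.12 to 0.23, edgeR adjusted p = 0.683). The helicase gene *drh-1*, known for antiviral RNAi, had a log2 difference of −0.11 (edgeR adjusted p = 0.456).

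*rde-1*, the Argonaute on which feeding RNAi rests, had 114, 106 and 92.5 CPM in the RNAi libraries, against 107, 106 and 114 CPM in the L4440 libraries. RNAi replicate 1 and L4440 replicate 3 shared the top of this range and RNAi replicate 3 was lowest (log2 −0.066, 95% interval −0.26 to 0.12, edgeR adjusted p = 0.616). The factors that act with RDE-1 to start amplification, namely the nuclease gene *rde-8*, *rde-10*, *rde-11*, the helicase gene *rde-12*, *rsd-2* and *rsd-6*, had log2 differences of −0.10 to 0.12, and 0 of these 6 passed the threshold in either direction, at an unadjusted p under 0.05 or in DESeq2. Of them, *rde-12* and *rsd-2* had all RNAi libraries below and *rde-8* had all RNAi libraries above the L4440 libraries, as 22.1% and 18.4% of all genes tested had.

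The 3 RNA-dependent RNA polymerase genes and *drh-3* did not pass the threshold, at an unadjusted p under 0.05 or in DESeq2 either. *ego-1*, the germline polymerase, had 157, 150.01 and 140.1 CPM in the RNAi libraries, against 150.4, 143 and 161 CPM in the L4440 libraries (log2 −0.025, 95% interval −0.19 to 0.15, edgeR adjusted p = 0.851). The values overlapped. *rrf-1*, its neighbour and counterpart in the soma, had 147, 149 and 141 CPM in the RNAi libraries, against 153, 159.7 and 161 CPM in the L4440 libraries. Every RNAi library was below every L4440 library, by little (log2 −0.12, 95% interval −0.27 to 0.026, edgeR adjusted p = 0.228). *rrf-3*, whose loss makes worms hypersensitive to RNAi, had 124, 122 and 114 CPM in the RNAi libraries, against 127, 123 and 124 CPM in the L4440 libraries, with overlap (log2 −0.054, 95% interval −0.20 to 0.094, edgeR adjusted p = 0.601). *drh-3*, the helicase that works with the polymerases, had a log2 difference of −0.18 (edgeR adjusted p = 0.205).

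None of the 6 mutator genes passed the threshold, at an unadjusted p under 0.05 or in DESeq2 either, and 4 had positive and 2 negative differences. *mut-16*, which encodes the scaffold of the granules, had 168, 164 and 119 CPM in the RNAi libraries, against 172, 183 and 179.99 CPM in the L4440 libraries. The groups did not overlap, and RNAi replicate 3 was far below the others (log2 −0.25, 95% interval −0.51 to 0.015, edgeR adjusted p = 0.172, and −0.10 without that library). *mut-2*, the nucleotidyltransferase that tags RNAi targets, had 106, 105 and 101 CPM in the RNAi libraries, against 94.2, 88.5 and 99.0 CPM in the L4440 libraries. Here every RNAi library was above every L4440 library (log2 0.15, 95% interval −0.0022 to 0.30, edgeR adjusted p = 0.156), and without RNAi replicate 3 the difference of 0.18 passed the threshold (adjusted p = 0.0396). The exonuclease gene *mut-7*, its partner *rde-2*, the helicase gene *mut-14* and *mut-15* had log2 differences of −0.17, 0.13, 0.11 and 0.0068 (edgeR adjusted p 0.385, 0.219, 0.307 and 0.959). The reads of *rde-2* are uncertain to the extent that 1.21% of its exon bases overlap another gene on the same strand in the annotation used here, where the counting may have dropped reads.

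All 3 ERI genes had positive log2 differences, and none passed the threshold in edgeR or DESeq2, with 1 at an unadjusted p under 0.05. *eri-5*, a Tudor domain cofactor of RRF-3, had 51.3, 54.3 and 48.8 CPM in the RNAi libraries, against 46.1, 43.7 and 46.7 CPM in the L4440 libraries. The groups did not overlap (log2 0.18, 95% interval 0.023 to 0.33, edgeR adjusted p = 0.108), and without RNAi replicate 3 the difference was 0.22 (adjusted p = 0.0255). *eri-3*, of the same complex, had 60.5, 55.1 and 55.2 CPM in the RNAi libraries, against 50.3, 46.9 and 54.9 CPM in the L4440 libraries, again without overlap (log2 0.17, 95% interval −0.007 to 0.34, edgeR adjusted p = 0.166). *eri-1*, the exonuclease whose loss enhances RNAi, overlapped between groups at log2 0.091. *henn-1*, which methylates the ends of piRNAs and some siRNAs, had 77.5, 76.8 and 77.2 CPM in the RNAi libraries, against 75.0, 74.1 and 70.1 CPM in the L4440 libraries, which did not overlap by a small margin (log2 0.079, 95% interval −0.059 to 0.22, edgeR adjusted p = 0.399).

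In both groups the Argonaute genes *hrde-1*, *prg-1*, *ergo-1* and *csr-1*, together with *rde-4*, had the highest levels of the 44 per kilobase of transcript. None of these 4 Argonaute genes passed the threshold in edgeR, at an unadjusted p under 0.05 or in DESeq2. *hrde-1*, the nuclear Argonaute of germline inheritance, was the highest at 149 ± 37.4 CPM per kilobase in the RNAi libraries and 168 ± 11.1 in the L4440 libraries (SD, n = 3 each). Its CPM were 615, 595 and 376 in the RNAi libraries, against 615, 549.6 and 619.8 in the L4440 libraries. RNAi replicates 1 and 2 were inside the L4440 range and RNAi replicate 3 lay far below (log2 −0.17, 95% interval −0.53 to 0.19, edgeR adjusted p = 0.484, and 0.031 without RNAi replicate 3). *prg-1*, the piRNA Argonaute, had 331, 332 and 248 CPM in the RNAi libraries, against 324, 299.6 and 340.1 CPM in the L4440 libraries, with the same library lowest (log2 −0.082, 95% interval −0.34 to 0.17, edgeR adjusted p = 0.653). *csr-1*, which binds siRNAs against expressed germline genes, had 393, 385 and 296 CPM in the RNAi libraries, against 355, 344 and 354 CPM in the L4440 libraries. Its RNAi replicates 1 and 2 were above the L4440 range and replicate 3 below it. Over all libraries the log2 difference was 0.028, 95% interval −0.21 to 0.27, edgeR adjusted p = 0.879, and without RNAi replicate 3 it was 0.15 and passed the threshold (adjusted p = 0.0303). Reads of *csr-1* are uncertain, since 11.9% of its exon bases overlap *frpr-10* on the same strand in the annotation used here. *ergo-1*, the Argonaute of endogenous siRNAs in embryos, had 448, 451 and 345 CPM in the RNAi libraries, against 472, 476 and 464 CPM in the L4440 libraries, without overlap (log2 −0.18, 95% interval −0.42 to 0.054, edgeR adjusted p = 0.255). The secondary Argonaute genes *ppw-1* and *ppw-2* had log2 differences of −0.13 and −0.083 (edgeR adjusted p 0.536 and 0.555).

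The sperm Argonautes *alg-3* and *alg-4* were near the limit of detection, and these close paralogs can lose shared reads in the counting. *alg-3* had 14, 20 and 7 counts in the RNAi libraries, against 14, 16 and 16 counts in the L4440 libraries. *alg-4* had 7, 13 and 9 counts in the RNAi libraries, against 8, 11 and 14 counts in the L4440 libraries. At this depth a difference was not detectable (log2 intervals −1.09 to 0.46 and −1.08 to 0.41). The 9 sperm marker genes had a summed level of 4.97 to 8.16 CPM in the RNAi libraries and 7.55 to 8.40 CPM in the L4440 libraries.

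**Figure D3:**
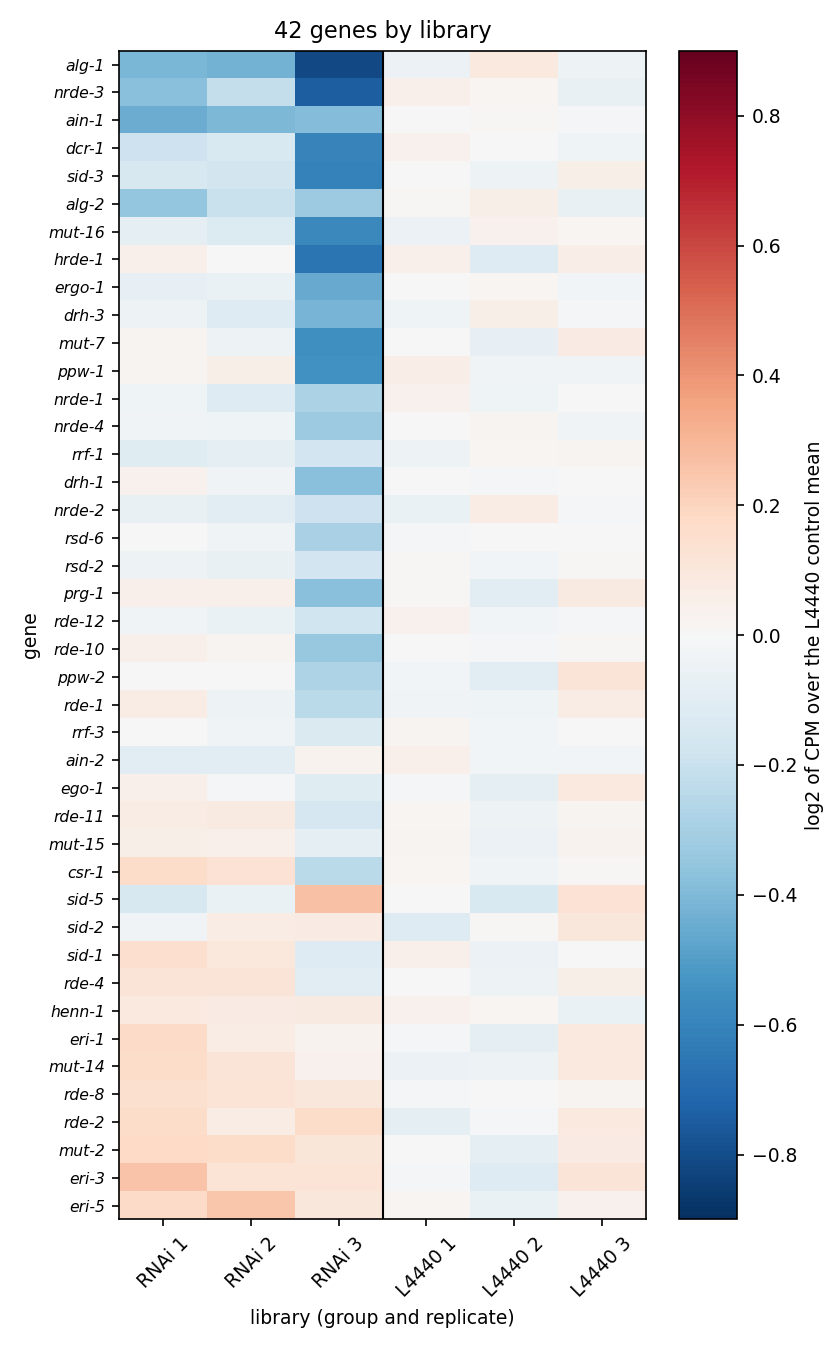
Log2 of CPM over the L4440 control mean for 42 genes (rows, ordered by the mean of the RNAi libraries; *alg-3* and *alg-4* left out for their few counts) in the 3 Y37A1B.5 RNAi libraries (left) and 3 L4440 libraries (right), blue for below and red for above. RNAi replicate 3 holds the lowest value of most rows, while *ain-1* is blue in all 3 RNAi libraries.

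Without RNAi replicate 3, the median log2 difference of the 44 genes was 0.01, with 23 above 0, against −0.0032 over all genes tested in that fit. Then 5 of the 44 genes were lower (*ain-1*, *alg-1*, *alg-2*, *nrde-3* and *dcr-1*), where 10.6% of all genes tested were, and 3 were higher (*csr-1*, *eri-5* and *mut-2*), where 7.89% were. Among genes without a call in that fit, *sid-3*, *drh-3*, *ergo-1* and *mut-7* had smaller log2 differences of −0.15, −0.074, −0.060 and −0.0043. Those of *drh-1*, *ppw-1* and *prg-1* were negative with RNAi replicate 3 and 0.011, 0.047 and 0.052 without it. The summed level of tissue markers was lower in RNAi replicate 3 than in RNAi replicates 1 and 2 for 7 of 8 marker lists, hypodermis being the exception. Its summed level of 14 germline markers was 2614 CPM, against 3319 and 3197 CPM in RNAi replicates 1 and 2 and 2815 to 3106 CPM in the L4440 libraries. The drop was not shared by all markers of the list. RNAi replicate 3 was the lowest library for 7 of the 14, while *fbf-2*, *syp-2* and *syp-3* were higher in it than in RNAi replicates 1 and 2. The sum of 11 oocyte and eggshell markers was 7671 CPM in it, against 10180.4 and 10094 CPM in RNAi replicates 1 and 2 and 8396 to 9513 CPM in the L4440 libraries. For 7 intestine markers the sum was 12557 CPM, against 23665 and 22360.3 CPM in RNAi replicates 1 and 2 and 20436 to 26866 CPM in the L4440 libraries. Most of this sum was the yolk protein genes *vit-2* and *vit-6*, at 5308 and 7063 CPM in RNAi replicate 3. The other intestine markers were also lower in RNAi replicate 3 than in RNAi replicates 1 and 2, except *act-5*. *ges-1* was at 24.5 CPM (against 31.4 and 32.7), *elt-2* at 8.04 (against 9.02 and 10.1) and *ifb-2* at 23.3 (against 28.9 and 31.5). *vha-6* was at 48.4 CPM (against 59.8 and 60.8), while *act-5* was at 81.6 CPM, against 71.5 and 80.5 CPM in RNAi replicates 1 and 2. For 5 hypodermis markers the sum was 57.5 CPM, against 47.8 and 54.9 CPM in RNAi replicates 1 and 2 and 39.9 to 63.0 CPM in the L4440 libraries. Between groups, 1 of 14 germline markers passed the threshold (*syp-2*, higher), 0 of 11 oocyte and eggshell markers and 0 of 7 intestine markers, with 3, 0 and 1 at an unadjusted p under 0.05 and 2, 0 and 0 in DESeq2. In the embryo list 2 of 7 tested were lower (*elt-1* and *tbx-38*, 28.6%) and in the neuron list 1 of 8 (*unc-31*, 12.5%), against 8.85% of all genes tested. At an unadjusted p under 0.05, 3 and 4 were lower, and DESeq2 called 2 lower in each list. Of 5 hypodermis markers 1 was higher (*col-19*, 20%, against 4.81% of all genes tested). The other 4 were negative, with a list median of −0.46, and 1 of them was lower at an unadjusted p under 0.05 and 0 in DESeq2. None of 7 body wall muscle markers and none of 5 sperm markers tested passed the threshold, with 2 and 0 lower at an unadjusted p under 0.05 and 1 and 0 in DESeq2. No marker was at 0 in all libraries. The part of tissue makeup in the differences of the small RNA genes was not tested.

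Transcript length moved with the difference. The 44 genes were long, with a median longest transcript of 3060 bases against 1350 bases for all genes tested, and 22 of them fell in the longest decile. In that decile of all genes the median log2 difference was −0.25 and 21.2% were lower, while in the shortest decile the median was 0.094. Over the 44 genes, Spearman's correlation of length with the log2 difference was −0.66, given as a description of genes that share the same 6 libraries. When a trend of log2 CPM on length was removed from each library, the correlation was −0.052 and 43 of the 44 differences moved up. Their median then was 0.086, against 0.046 over all genes tested. *ain-1* alone remained lower (log2 −0.25, edgeR adjusted p = 0.0263), where 7.80% of all genes tested were lower. *alg-1* was at −0.15 (adjusted p = 0.105), *nrde-3* at −0.20 (0.0816) and *alg-2* at −0.0047 (0.973). With the trend removed, 6 genes were higher, where 11.6% of all genes tested were: *ego-1* (0.32), *rrf-3* (0.31), *csr-1* (0.27), *eri-5* (0.25), *rde-2* (0.23) and *sid-1* (0.21). So the direction of many of the genes depended on this step, with 29 of the 44 negative before it and 9 after it. Among them were *ego-1*, *rrf-3* and *dcr-1* (0.069, adjusted p = 0.465), which have the longest transcripts next to that of *alg-1*. Whether the length trend reflects the worms or the libraries was not tested.

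**Figure D4:**
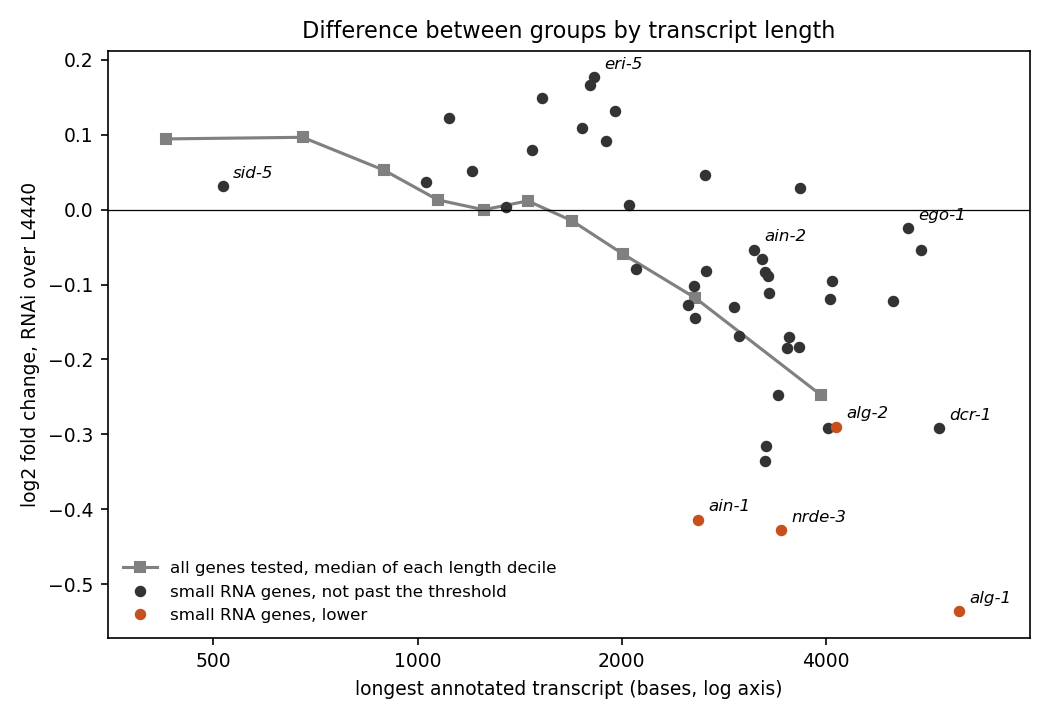
Log2 fold change, Y37A1B.5 RNAi over L4440 control (y axis), against the longest annotated transcript in bases (log x axis) for the 44 genes (points, orange where lower at an adjusted p under 0.05), with the median of each decile of all genes tested by length as grey squares. The grey line runs down to −0.25 at the longest transcripts, and *ain-1* lies far below it at its length.

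By chromosome, a pattern chosen after the values were seen, 3 of the 5 genes on X were lower (*ain-1*, *alg-1* and *nrde-3*, with *sid-3* and *sid-5* not past the threshold), and 1 of the 39 genes elsewhere was. Of all 2187 genes tested on X, 15.1% were lower, with a median log2 difference of −0.16, while on the other chromosomes 6.51% to 10.7% were lower. With the length trend removed the median of all X genes was −0.066. The part of the chromosome in these differences was not tested.

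Wider lists of small RNA genes gave the surroundings of these 44. Of 75 further genes, 70 were tested, 4 were lower (5.71%, against 8.85% of all genes tested) and 1 was higher (1.43%, against 4.81%), with a median log2 difference of −0.024, and DESeq2 called 5 lower and 2 higher. None of 11 other Argonaute genes and none of 12 other microRNA factors passed the threshold in edgeR, with 1 in each list at an unadjusted p under 0.05 and 0 and 1 in DESeq2. Of 13 further siRNA factors 3 were lower (23.1%, against the same 8.85%). The polymerase gene *rrf-2*, a relative of *rrf-1* with no settled role, had 19.5, 19.1 and 20.1 CPM in the RNAi libraries, against 27.8, 29.5 and 31.7 CPM in the L4440 libraries. The groups were well apart (log2 −0.60, 95% interval −0.77 to −0.43, edgeR adjusted p = 0.00127), and the call was lost with the length trend removed (adjusted p = 0.0956). *adr-1*, of the adenosine deaminase family that acts on dsRNA, had 155, 168 and 122 CPM in the RNAi libraries, against 204, 208 and 190.5 CPM in the L4440 libraries (log2 −0.43, 95% interval −0.68 to −0.19, edgeR adjusted p = 0.0288). *rsd-3*, an epsin-like trafficking gene needed for systemic RNAi, had 48.2, 50.2 and 40.4 CPM in the RNAi libraries, against 57.6, 63.2 and 56.5 CPM in the L4440 libraries (log2 −0.35, 95% interval −0.55 to −0.15, edgeR adjusted p = 0.0303). Neither group pair overlapped. With the length trend removed, *adr-1* and *rsd-3* remained lower (log2 −0.24 and −0.27, edgeR adjusted p 0.0468 and 0.0333). The calls of *adr-1* and *rsd-3* were each lost without L4440 replicate 1 (edgeR adjusted p 0.0999 and 0.0860) and without L4440 replicate 2 (0.112 and 0.131), that of *adr-1* also without L4440 replicate 3 (0.05002) and that of *rsd-3* also without RNAi replicate 1 (0.0525).

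Of 12 nuclear RNAi and inheritance factors, 1 was lower, the histone methyltransferase gene *set-25*, with 20.5, 19.2 and 18.8 CPM in the RNAi libraries, against 22.1, 25.3 and 27.2 CPM in the L4440 libraries (log2 −0.35, 95% interval −0.56 to −0.15, edgeR adjusted p = 0.0324). Of 14 piRNA factors, 1 was higher, *pid-1*, which is needed to make piRNAs, with 32.4, 34.4 and 36.9 CPM in the RNAi libraries, against 27.8, 25.8 and 30.4 CPM in the L4440 libraries (log2 0.30, 95% interval 0.12 to 0.49, edgeR adjusted p = 0.0399). Neither was stable. *set-25* lost its call under 6 of 14 alternatives, among them leaving out RNAi replicate 1 (edgeR adjusted p = 0.0553) or 2 (0.0816) and L4440 replicate 2 (0.116) or 3 (0.0832). *pid-1* lost it under 5, among them leaving out RNAi replicate 2 (0.0834) and L4440 replicate 1 (0.133) or 2 (0.165). Of the 13 genes of the intracellular pathogen response, a defence program against viruses and microsporidia, 8 were tested and 0 passed the threshold in edgeR or DESeq2, with 1 lower at an unadjusted p under 0.05. Their median log2 difference was 0.036.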

How the data were processed

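Whole-worm mRNA of 3 Y37A1B.5 RNAi and 3 L4440 control samples was sequenced from stranded libraries. Per the methods of the study, the authors trimmed the reads, mapped them to WBcel235 with TopHat2 2.1.0 and counted unique, single-gene, strand-matched reads with featureCounts 1.5.0, after base calling with bcl2fastq 1.8.4. They deposited raw counts per gene, which enter here unchanged. Reads shared by paralogs or overlapping genes were thereby lost.

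Counts were tested in R 4.3.3 with edgeR 4.0.16 (TMM scaling, filterByExpr with a minimum count of 10 and minimum total of 15, quasi-likelihood F test, two-sided, no covariates). Benjamini-Hochberg values were taken over all 15003 genes tested, with 0.05 as threshold. Names, positions, overlaps of genes and transcript lengths came from Ensembl release 115 (WBcel235), which gave 46484 of 46739 genes a match. The authors counted with an earlier Ensembl release, against which the overlaps were not checked. CPM per kilobase used the longest annotated transcript. Depth was 34403223 to 46733527 counts per library.

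Named were all genes of the 44 past the threshold, the defining members of each step, those with few counts, and up to 3 genes of each wider list past the threshold. *frpr-10*, the other small RNA genes and the markers given by name were added after values were seen. The 44 genes, listed by function, and all other lists were chosen with earlier results of these data known. Of 152 list names 146 matched. The wider lists were other Argonautes, microRNA, piRNA, siRNA and nuclear RNAi factors and the intracellular pathogen response. The markers were of germline, oocyte, sperm, embryo, intestine, muscle, hypodermis and neuron. Alternatives were RLE, upper-quartile and reference-gene scaling (*cdc-42*, *tba-1*, *pmp-3*), DESeq2 1.42.0, no filter, at least 10 counts in every library, a replicate block, a loess trend on transcript length (span 0.5) removed, and each library left out in turn.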

Additional observations from a re-analysis of the deposited data

How the results depend on the processing

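Among the 44 genes, the 4 lower genes remained *ain-1*, *alg-1*, *alg-2* and *nrde-3*, with 0 higher, under RLE, upper-quartile and reference-gene scaling, DESeq2, the stricter filter and the replicate block. Without a filter *dcr-1* and *sid-3* were also lower. With the length trend removed, 1 was lower and 6 were higher, and *ego-1* (0.32) and *rrf-3* (0.31) turned to positive log2 differences past the threshold. Besides *sid-5*, this step changed the sign of 19 other differences of the 44 that passed the threshold neither with nor without it. Each of these 19 moved by at least its standard error in the main fit. *sid-5* went from 0.031 to −0.0084, by less than its standard error of 0.13, and passed the threshold in neither fit. With a library left out in turn, 2 to 5 genes were lower and 0 to 3 higher.

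Of the wider lists, 5 genes passed the threshold, against 3 with reference-gene scaling, 9 without a filter, 10 with the length trend removed and 1 to 14 with a library left out. Over all genes 2050 passed, against 3298 without a filter and 727 to 2811 with a library left out. Of these 2050, 35.2% were higher, against 23.8% with upper-quartile factors, 48.2% in DESeq2 (2507 calls) and 59.9% with the length trend removed.

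The labels number the replicates in both groups but tie no number to a shared culture. Deviations of same-numbered libraries correlated at 0.135, 0.0626 and 0.121, and those of other pairs at −0.146 to 0.0357, so every library correlated best with its own number, a hint from the data. The methods speak of independent experiments without saying which libraries share one. With the replicate block, 2917 genes passed the threshold, 1142 higher and 1775 lower, and the calls among the 44 genes did not change. Depth limited *alg-3* and *alg-4* alone among the 44 genes, which had 20 counts or fewer in every library.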
